A study of Mus musculus with 9 samples.

Results

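The RNA of 8 Krüppel-like factor genes, Klf2, Klf3, Klf4, Klf6, Klf7, Klf9, Klf10 and Klf13, was followed in neutrophils of mice with pancreatic tumors. The members were chosen by gene symbol and are 8 of the 17 Krüppel-like factor genes among 46517 genes in the file. All 9 libraries came from C57BL/6 mice that carried an orthotopic (OT) pancreatic ductal adenocarcinoma, grown from a luciferase-expressing pancreatic tumor line placed in the pancreas, and were sampled on day 27 after transplantation. Neutrophils came from 3 compartments with 3 libraries each, the bone marrow (labelled Ly6G.hi), the blood (Ly6G+) and the tumor (Ly6G+), and every library was made from the pooled cells of several mice, in separate experiments. The libraries include no healthy mouse, so every comparison is between compartments of tumor-bearing animals. Cells were sorted as live CD45+ Ly6G+ Ly6C+ cells that lacked CD3, B220 and NK1.1, a gate that asks for CD45 and Ly6G, which epithelial cells and fibroblasts lack, and that excludes no macrophage marker by name. Tumors were digested with collagenase and DNase, so the compartment and the preparation cannot be told apart.

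Krüppel-like factors are transcription factors that bind CACCC boxes and GC-rich boxes through zinc fingers at their C-terminal end. What they do once bound depends on the part ahead of the fingers. Klf2, Klf4, Klf6 and Klf7 belong to the branch that mostly activates and can recruit the acetyltransferases p300 and CBP, Klf3 belongs to the branch that represses through the co-repressor CtBP, and Klf9, Klf10 and Klf13 belong to the branch that recruits Sin3A and its histone deacetylases. In myeloid cells Klf2 is known for quiescence and for restraint of inflammatory genes, Klf4 for monocyte differentiation and Klf6 for inflammatory responses.

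Sequence just ahead of the start of transcription is given for 4 members, because Klf4 was the member called higher in the tumor than elsewhere, Klf13 the member called lower, Klf6 the member with the highest level in every compartment, and Klf2 the tested member that varied most among libraries of blood and tumor. Each stretch is 120 bases on the gene's own strand in RefSeq's GRCm38.p6, 5′ to 3′, and ends just ahead of the earlier of the RefSeq and GENCODE M21 starts. Capitals mark the motifs searched, on either strand: the KLF box CACCC, the GC box GGGCGG, the cyclic AMP element core TGACG, the AP-1 site TGANTCA, the hypoxia element core ACGTG and the MEF2 site.
Klf4, chr4:55532476-55532595, minus strand: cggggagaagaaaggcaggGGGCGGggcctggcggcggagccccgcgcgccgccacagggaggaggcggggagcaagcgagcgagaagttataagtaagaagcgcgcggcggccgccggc
Klf13, chr7:63938916-63939035, minus strand: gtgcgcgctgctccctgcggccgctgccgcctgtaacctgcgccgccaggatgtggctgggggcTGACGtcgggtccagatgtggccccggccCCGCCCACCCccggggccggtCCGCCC
Klf6, chr13:5861362-5861481, plus strand: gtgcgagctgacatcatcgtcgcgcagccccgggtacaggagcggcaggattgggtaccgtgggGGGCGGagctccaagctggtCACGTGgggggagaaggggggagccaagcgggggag
Klf2, chr8:72318913-72319032, plus strand: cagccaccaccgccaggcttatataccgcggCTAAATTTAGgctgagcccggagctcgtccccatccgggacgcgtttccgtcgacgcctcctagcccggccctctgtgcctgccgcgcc

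RefSeq windows of 250 bases before to 50 after the start were at hand for 7 members, with Klf10 not among them. A GC box stood in 6 of the 7 windows and in 35.7% of all 32851 windows, and a KLF box in 5 of the 7 and in 57.5% of all. In Klf13 the KLF box overlaps a GC box. The cyclic AMP element core stood in 5 of the 7 windows against 20.8% of all, and the hypoxia element core in Klf4, Klf6 and Klf9 against 19.6% of all, in Klf4 and Klf6 as CACGTG, which reads the same on both strands. The AP-1 site was found in Klf9 alone among the 7, against 7.8% of all windows. The MEF2 site, the element through which the kinase ERK5 is known to drive Klf2, was found in Klf2 alone, at −118 counted from its start, and in 0.6% of all windows. The windows of the members held 59.2% to 78.4% G and C in the 250 bases before the start, and the median over all windows was 52.4%. The GC box, the KLF box and the cores of the cyclic AMP and hypoxia elements are themselves made mostly of these letters. The shares were not set against windows of like composition. These matches are letters in a window and not measured binding.

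Between 4580807 and 7949367 reads per library were assigned to genes. The values are log2 FPKM, that is, log2 of reads per kilobase of gene per 1000000 reads, with library sizes scaled by the authors. Scaling factors averaged 0.84 in bone marrow, 0.841 in blood and 1.15 in the tumor, and with plain read totals in their place the median difference of the tumor from either other compartment moved up by 0.45 on the log2 scale. Genes over a log2 FPKM of 0 in at least 3 libraries were tested (7794 genes) with limma across all 9 libraries, and a gene was called at a Benjamini-Hochberg adjusted p under 0.05 over all of them. The 10 neutrophil markers were read in every library and made up 75000 to 77300 reads per 1000000 (RPM) in sum (bone marrow), 33000 to 33500 (blood) and 13300 to 16500 (tumor). Markers of other cells rose in the tumor libraries: the 10 epithelial markers summed to 2930 to 6260 RPM there against 8.02 to 141 elsewhere, the 8 fibroblast markers to 1120 to 1380 against 0.18 to 9.99, and the 8 acinar markers to 553 to 2380 against 1.27 to 7.47. The 9 macrophage markers lay at 460 to 473 (bone marrow), 1410 to 1590 (blood) and 621 to 833 (tumor), and in blood the 5 platelet markers reached 442 to 616 against at most 10.8 elsewhere, the 8 lymphocyte markers 79.9 to 139 against 6.24 to 45.5, and the 6 red cell markers 245 to 471 against 12.9 to 139. The part of these cells in the members that were highest in blood was not tested. In bulk RNA, a change in the share of cells and a change in RNA per cell cannot be told apart.

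Klf4 was the member called higher in the tumor than elsewhere in both comparisons, and Klf13 the member called lower in both. Klf3, Klf6 and Klf13 were highest in blood, Klf10 was higher in blood and tumor than in bone marrow, and Klf2 was called in no comparison. Of the 8 members 7 passed the filter. Klf9 did not, with 1 library over 0, Klf4 passed only through the 3 tumor libraries, and Klf7 only through the 3 blood libraries, so each entered the tested set through the compartment where it is high, and its values from a fit with no filter are given beside those of the tested set.

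**Figure D1:**
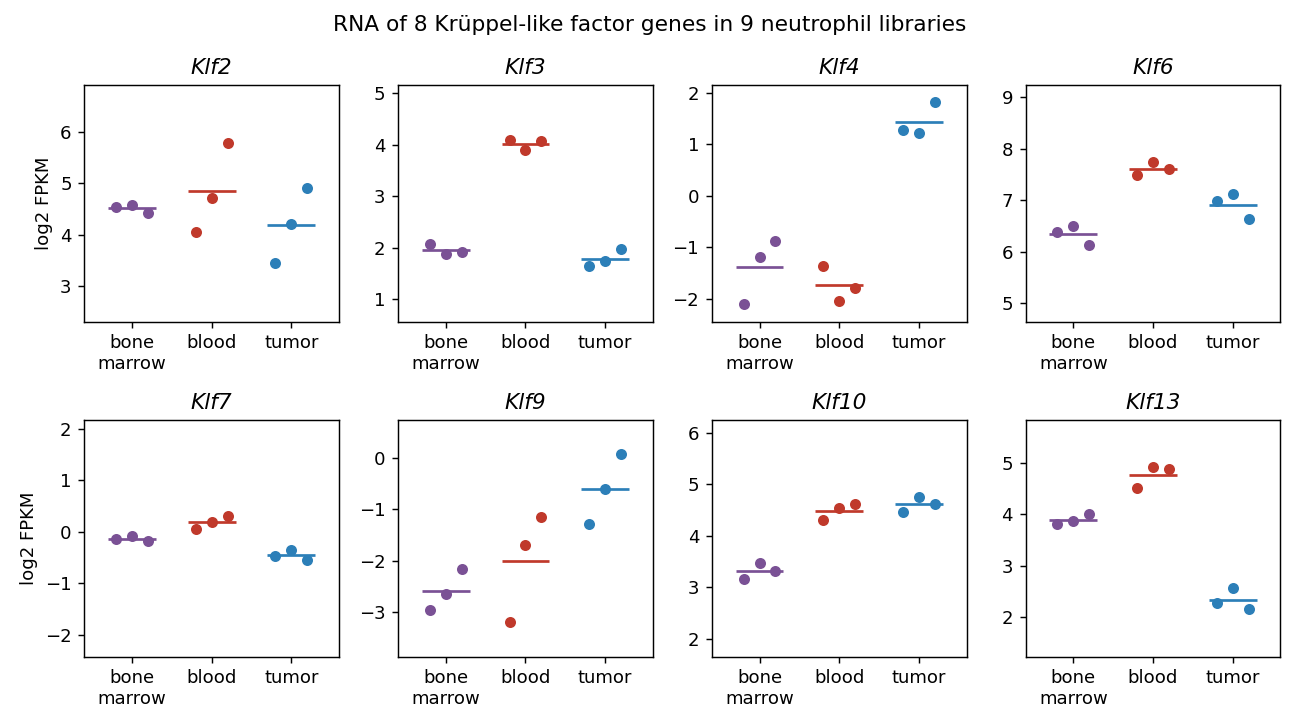
Log2 FPKM (vertical axis, with the same span in every panel) of the 8 members in each of the 9 libraries, grouped by compartment, with the mean of each compartment as a line. Klf4 stands apart upward in the tumor and Klf13 downward, Klf3 stands apart upward in blood, and the libraries of Klf2 spread widely in blood and tumor.

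Among the activating members, Klf4 was nearly unread outside the tumor. Its log2 FPKM read −2.11, −1.19 and −0.88 in bone marrow libraries 1 to 3 (8, 13 and 19 reads), −1.37, −2.05 and −1.80 in blood (8, 7 and 7 reads), and 1.28, 1.21 and 1.81 in tumor (80, 93 and 148 reads). All tumor libraries lay above all others, and bone marrow and blood overlapped. Klf4 was 9.01-fold higher in tumor than in blood (log2 difference 3.17 ± 0.37 SE, limma adjusted p = 0.000185) and 7.10-fold higher than in bone marrow (2.83 ± 0.37, adjusted p = 0.000414). In the limma fit with no filter the adjusted p were 0.000239 and 0.000531. The size of the difference rests on few reads outside the tumor, and with a pseudocount of 1 FPKM it was 1.51 from blood and 1.41 from bone marrow, both called. Blood and bone marrow did not pass the test for Klf4 (−0.35, 95% confidence interval −1.21 to 0.52, adjusted p = 0.489), and at 7 to 19 reads per library a modest difference was not detectable. Klf4 is also a known gene of epithelium. The epithelial markers summed to 3860, 2930 and 6260 RPM in tumor libraries 1 to 3, with the highest sum in the library with the highest Klf4 and the lowest sum in the library with the lowest, and to 24.0, 141 and 21.4 in the blood libraries, where the library with the highest sum had the lowest Klf4. The part of these cells in the Klf4 difference was not tested.

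Klf6, known from injury and inflammatory responses, carried the most reads of the activating members. Bone marrow libraries stood at 6.39, 6.51 and 6.13 log2 FPKM, with 7.50, 7.75 and 7.60 in blood and 6.98, 7.12 and 6.64 in the tumor. The compartments did not overlap, with blood highest and bone marrow lowest. Klf6 rose 2.41-fold from bone marrow to blood (1.27 ± 0.15 SE, limma adjusted p = 0.000462). In tumor it was 1.62-fold lower than in blood (−0.70 ± 0.15, adjusted p = 0.00449) and 1.48-fold higher than in bone marrow (0.57 ± 0.15, adjusted p = 0.0141). With plain read totals the difference from blood shrank to −0.25 and was not called (adjusted p = 0.0739), while that from bone marrow grew to 1.02.

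Klf2, a factor of quiescent T cells and of endothelium under shear stress, had the widest spread of the tested members. The libraries gave log2 FPKM of 4.53, 4.58 and 4.41 in bone marrow but 4.04, 4.70 and 5.77 in blood, and 3.44, 4.21 and 4.90 in the tumor. The SD was 0.09 over the bone marrow libraries, 0.88 over blood and 0.73 over tumor, at 170 to 672 reads per library. All 3 compartments overlapped. The differences were −0.65 for tumor against blood (95% confidence interval −1.76 to 0.46, limma adjusted p = 0.267), −0.32 for tumor against bone marrow (−1.43 to 0.78, adjusted p = 0.593) and 0.33 for blood against bone marrow (−0.78 to 1.43, adjusted p = 0.617). These intervals include changes of more than 2-fold in at least 1 direction, so the data do not show equal levels. The difference of blood from bone marrow was −0.14 without blood library 3, that of tumor from bone marrow 0.05 without tumor library 1, and that of tumor from blood −1.05 without blood library 1 and −0.18 without blood library 3. Endothelial markers, 7 genes of which none passed the filter, lay between 11.0 and 18.2 RPM (bone marrow), 85.3 and 123 (blood) and 94.7 and 132 (tumor) in sum, and were lowest in blood library 3 and tumor library 3, the libraries with the most Klf2 of their compartments. Of these genes Cdh5 and Tek had no read in any blood library, whereas Vwf, Kdr and Pecam1 were higher in every blood library than in every bone marrow library. The near-equal sums of blood and tumor hide differences by gene. Vwf was lower in tumor than in blood (−3.53), and the others were all higher without overlap, from 0.86 for Pecam1 to 6.60 for Emcn. The part of endothelial RNA in the Klf2 values was not tested.

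Klf7, a close relative of Klf6, changed little. Library by library, its log2 FPKM was −0.14, −0.08 and −0.17 in bone marrow, 0.05, 0.20 and 0.31 in blood, then −0.46, −0.35 and −0.55 in tumor, at 379 to 594 reads per library. The compartments did not overlap, in the order blood, bone marrow, tumor. The fall from blood to tumor was called (−0.64 ± 0.17 SE, limma adjusted p = 0.0109, or 0.027 with no filter). With a pseudocount of 1 FPKM it was −0.31, and with plain read totals it was −0.19 and was not called (adjusted p = 0.387). Tumor against bone marrow (−0.32, adjusted p = 0.141) and blood against bone marrow (0.32, adjusted p = 0.164) did not pass, the first turning to 0.13 with plain totals.

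Klf3, the CtBP-recruiting repressor, was highest in the blood libraries. Its log2 FPKM came to 2.08, 1.88 and 1.93 in bone marrow, 4.09, 3.90 and 4.07 in blood, and 1.64, 1.75 and 1.98 in the tumor. Blood lay above every library of the other compartments, which overlapped. Klf3 was 4.16-fold higher in blood than in bone marrow (2.06 ± 0.12 SE, limma adjusted p = 2.01e-05) and 4.69-fold lower in tumor than in blood (−2.23 ± 0.12, adjusted p = 4.97e-06). Tumor and bone marrow differed by −0.17 (95% confidence interval −0.45 to 0.11, adjusted p = 0.26), or by 0.28 with plain read totals.

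Of the Sin3A-recruiting members, Klf13, known in T cells as an activator of the chemokine gene Ccl5, fell in the tumor. Values of log2 FPKM were 3.80, 3.87 and 4.01 in bone marrow, 4.50, 4.92 and 4.87 in blood, and 2.27, 2.57 and 2.15 in the tumor. The 3 compartments did not overlap, with blood highest and tumor lowest. Klf13 was 5.39-fold lower in tumor than in blood (−2.43 ± 0.15 SE, limma adjusted p = 8.82e-06) and 2.95-fold lower than in bone marrow (−1.56 ± 0.15, adjusted p = 8.49e-05). From bone marrow to blood it rose 1.83-fold (0.87 ± 0.15, adjusted p = 0.00265). The falls stayed called with plain read totals, at −1.98 and −1.11.

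Klf10, first described as a gene induced by TGF-beta, was low in bone marrow. On the log2 FPKM scale it was at 3.15, 3.46 and 3.32 there, 4.30, 4.53 and 4.61 in blood, and 4.46, 4.75 and 4.61 in the tumor. Blood and tumor overlapped, and both lay above bone marrow. Klf10 was 2.25-fold higher in blood than in bone marrow (1.17 ± 0.12 SE, limma adjusted p = 0.000263) and 2.45-fold higher in tumor than in bone marrow (1.30 ± 0.12, adjusted p = 8.07e-05). Tumor against blood gave 0.12 (95% confidence interval −0.16 to 0.41, adjusted p = 0.414) with the authors' scaling, and was called higher with plain read totals (0.57, adjusted p = 0.00263) and with quantile normalization (0.61, adjusted p = 0.00211).

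Klf9, a gene induced by glucocorticoids, had few reads in bone marrow and blood. The log2 FPKM of Klf9 was −2.95, −2.65 and −2.16 in bone marrow (22, 23 and 38 reads), −3.19, −1.70 and −1.15 in blood (11, 44 and 54 reads) and −1.29, −0.60 and 0.07 in tumor (65, 128 and 214 reads). Tumor lay above bone marrow without overlap, and blood overlapped with both. Klf9 was outside the tested set, whose filter is on FPKM. It had more reads than Klf4 in every library but tumor library 1. The length by which its FPKM was divided was 5.33 times its exon length, against 1.75 times for Klf4. In a limma fit with no filter the difference of tumor from bone marrow was 1.98 ± 0.58 SE (adjusted p = 0.0302) and that from blood 1.41 ± 0.58 (adjusted p = 0.089), and limma-voom on the recovered reads gave 2.00 (adjusted p = 0.00426) and 1.36 (adjusted p = 0.0285). Within the tumor libraries Klf9 was highest in library 3, the library with the highest epithelial marker sum, and lowest in library 1, which did not have the lowest sum. Whether these cells carried Klf9 was not tested.

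The members were read against the background of all tested genes. In tumor against blood 1 of the 7 tested members was called higher (Klf4), where 28.1% of all genes were, and 4 were called lower (Klf3, Klf6, Klf7 and Klf13), where 34.5% were. Klf4 and Klf7 entered these counts through the compartment where they are high, so the counts are a description. In tumor against bone marrow 3 were higher (Klf4, Klf6 and Klf10) against 22.4% of all genes, and 1 was lower (Klf13) against 32.9%. In blood against bone marrow 4 were higher (Klf3, Klf6, Klf10 and Klf13) against 20.6% of all genes, and none was lower against 23.6%. The tumor was higher than blood and bone marrow alike in 1 member (16.5% of all genes) and lower than both in 1 (23.7%), and blood was higher than both in 3 (13.8%). Because much of the transcriptome differed between compartments, a single call in this set is common. The median difference of the tested members was −0.65 for tumor minus blood, −0.17 for tumor minus bone marrow and 0.87 for blood minus bone marrow, beside −0.17, −0.21 and −0.04 over all genes tested. Relative to the median gene, the differences from blood were 3.34 for Klf4, −2.26 for Klf13 and −2.06 for Klf3 in tumor, and those from bone marrow 3.04, −1.35 and 0.04. The comparisons share libraries, so they are not independent. An exact permutation test on a single gene, 3 libraries against 3, cannot give a p below 0.1.

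**Figure D2:**
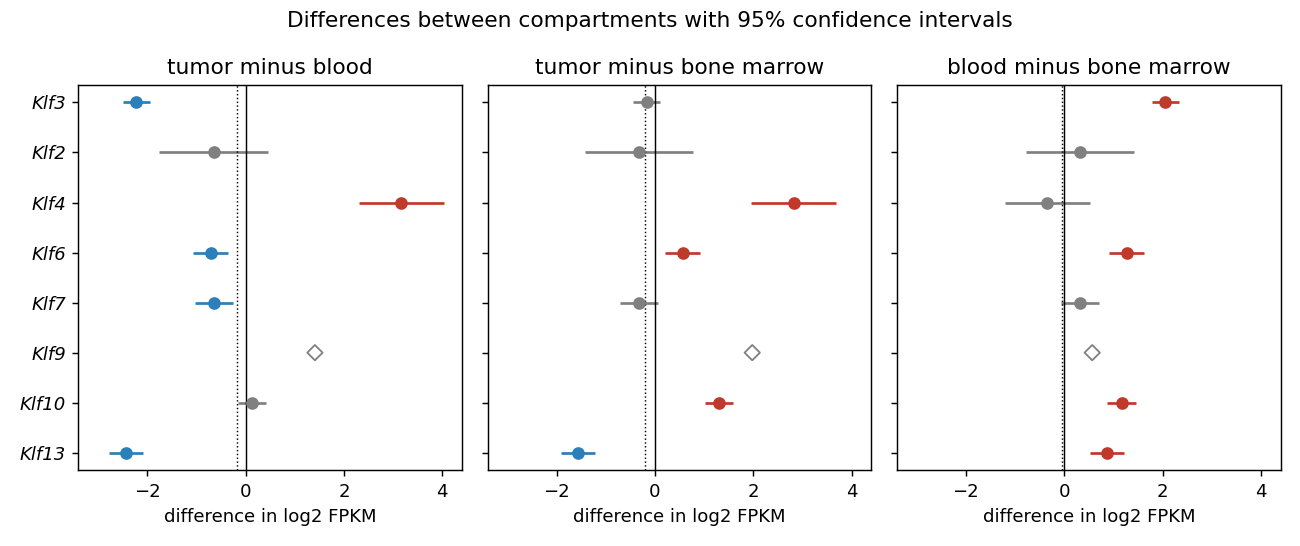
Differences in log2 FPKM between compartments (horizontal axis) for the 8 members, with 95% confidence intervals from limma. Red points were called higher, blue points lower and grey points not called, open diamonds mark Klf9, which was not tested, and the dotted line marks the median of all genes tested. Klf4 lies at 3.17 and 2.83 in the tumor comparisons, and Klf13 at −2.43 and −1.56.

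**Figure D3:**
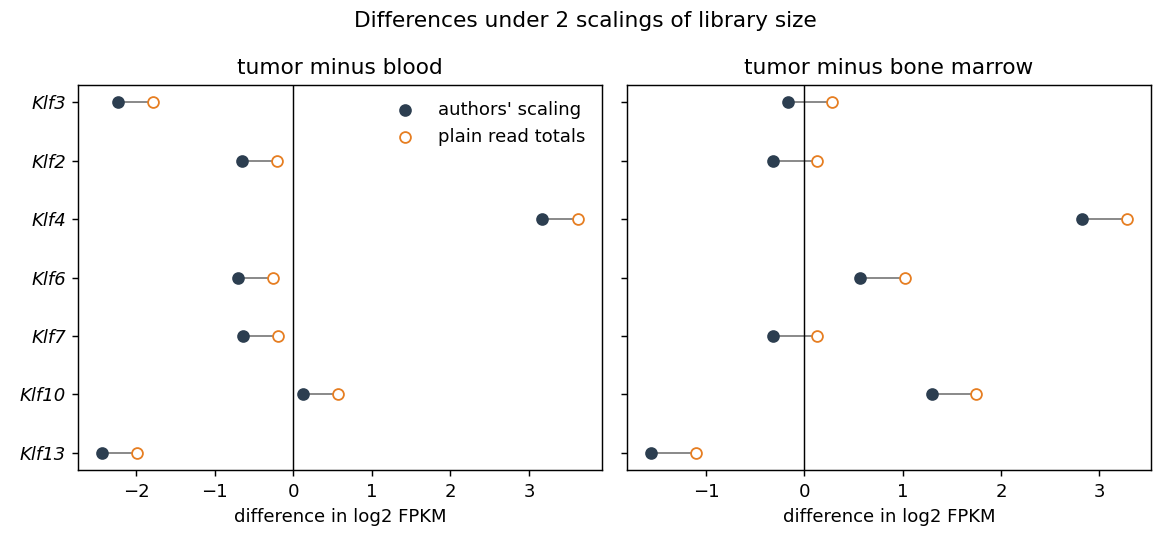
Differences in log2 FPKM (horizontal axis) of the 7 tested members in the tumor comparisons, with the authors' scaling of library size (filled) and with plain read totals (open). Plain totals move each value to the right by about 0.45, which takes Klf2, Klf3 and Klf7 across 0 in tumor against bone marrow, and leaves Klf4 and Klf13 on their sides.

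The levels of the members can be set beside each other per kilobase of exon, which was computed from the recovered reads and the union of annotated exons. The FPKM of most genes in the file were divided by the whole gene span, introns included. This lowers genes with long introns, such as Klf7, whose span is 11.42 times its exon length. The paper's methods name counting per gene and do not say whether reads in introns were counted. If they were, the levels per kilobase of exon are too high for such genes, also for Klf13, with a ratio of 6.98. In reads per kilobase of exon per 1000000 reads, Klf6 was the member with the highest level in every compartment, at 166 ± 22.1 in bone marrow, 399 ± 35.4 in blood and 247 ± 40.1 in the tumor (SD, n = 3). Klf13 followed in bone marrow (104 ± 7.73) and blood (191 ± 29.0), in both cases below all Klf6 libraries and above those of every other member. In tumor Klf13 was at 35.5 ± 5.49, and Klf10 (36.8 ± 3.69) and Klf2 (28.0 ± 13.6) did not differ from it beyond their spread. In blood Klf2 (45.9 ± 28.3), Klf3 (42.6 ± 3.10) and Klf10 (33.8 ± 3.65) came next, with Klf2 overlapping both and Klf3 above Klf10 in every library. In bone marrow the order went on with Klf2 (32.4 ± 1.94), Klf10 (15.0 ± 1.58), and Klf7 (10.4 ± 0.331) and Klf3 (10.2 ± 0.755), which overlapped. At the low end of tumor Klf3 (9.13 ± 1.13) and Klf7 (8.35 ± 0.563) overlapped, as did Klf4 (4.79 ± 1.15) and Klf9 (3.76 ± 1.72). Klf4 and Klf9 were the lowest members in all compartments and overlapped in each, at 0.695 and 0.905 in bone marrow and 0.522 and 1.54 in blood.

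**Figure D4:**
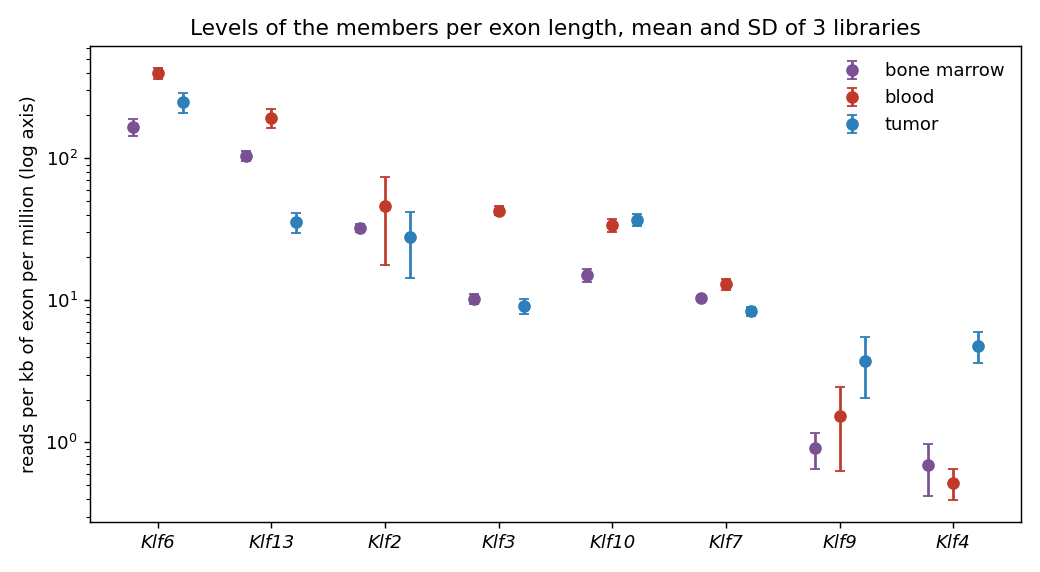
Level of each member as reads per kilobase of exon per 1000000 reads (log axis), as mean and SD of 3 libraries per compartment, with members ordered by their level in blood. Klf6 is at the top in every compartment, and Klf13 drops from 191 in blood to 35.5 in tumor.

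Summed over the 8 members, this level came to 339 ± 19.2 (bone marrow), 727 ± 79.7 (blood) and 373 ± 37.4 (tumor), each as mean ± SD with n = 3, so the blood libraries held the most. Klf6 made up 48.8% ± 4.05 of the sum in bone marrow, 55.0% ± 3.66 in blood and 66.0% ± 6.08 in the tumor. Klf13 made up 30.7% ± 3.65, 26.2% ± 1.24 and 9.46% ± 0.50, and Klf10 4.42% ± 0.38, 4.65% ± 0.14 and 9.87% ± 0.78. These shares do not depend on the scaling of library size, but the limit on reads in introns applies to them too. Klf3 rose to 5.93% ± 1.01 in blood from 3.03% ± 0.32 in bone marrow and stood at 2.47% ± 0.49 in tumor, and Klf4 stayed at 1.31% ± 0.42 or below.

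Of the 9 other Krüppel-like factor genes 2 passed the filter. Klf5, an activating member known from epithelium and from early myeloid cells, was at 1.88, 1.24 and 1.54 log2 FPKM in bone marrow, −1.05, −0.52 and −0.85 in blood, and 0.38, 0.72 and 1.95 in the tumor. Blood lay below the others, and Klf5 was called lower in blood than in bone marrow (−2.36 ± 0.40 SE, limma adjusted p = 0.0024) and higher in tumor than in blood (1.83 ± 0.40, adjusted p = 0.00462). As for Klf4, its highest tumor value fell in library 3, and the part of epithelial cells was not tested. Klf11, a TGF-beta-inducible relative of Klf10, was at −0.69, −0.10 and −0.74 in bone marrow, 1.78, 2.25 and 1.82 in blood, and 0.37, 1.66 and 1.44 in the tumor. It was higher in blood (2.46 ± 0.36, adjusted p = 0.00116) and in tumor (1.67 ± 0.36, adjusted p = 0.00507) than in bone marrow, and tumor against blood did not pass (−0.80, adjusted p = 0.0864). Klf1, the erythroid factor, had 17 to 31 reads in bone marrow, 0 in each blood library and 0 to 4 in tumor. Klf8 had 15 to 27 reads in bone marrow and 0 to 9 elsewhere, Klf16 had 3 to 25 reads in all libraries, Klf15 had 3 to 11 in tumor and at most 1 elsewhere, Klf12 had at most 3, and Klf14 and Klf17 had none in any library.

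Co-regulators that the members are known to bind were lower or higher in the tumor libraries gene by gene. Of 10 co-regulator genes 7 were tested, and in tumor against blood 4 were called lower and 1 higher, or 2 lower and 2 higher with plain read totals. Of all genes 34.5% were called lower and 28.1% higher in this comparison. Ep300, which encodes p300, fell by 1.50 on the log2 scale (limma adjusted p = 0.000312) and Crebbp, which encodes CBP, by 1.08 (adjusted p = 0.0035). Sin3a (−0.87, adjusted p = 0.0134) and Sin3b (−0.49, adjusted p = 0.0189) were lower as well, and the deacetylase gene Hdac3 was higher (1.29, adjusted p = 0.000175). Ctbp1, whose product is recruited by Klf3, did not differ between tumor and blood by the test (0.32, adjusted p = 0.599) but was lower in blood than in bone marrow (−2.17, adjusted p = 0.00892), where Klf3 was higher. Ctbp2 was not tested, at mean log2 FPKM of −3.34 in tumor and −3.56 in blood. Against bone marrow the tumor libraries had 5 co-regulators lower and 1 higher, or 3 and 1 with plain read totals, and blood had 3 lower and none higher. Of all genes 32.9% were lower and 22.4% higher in tumor than in bone marrow, and 23.6% lower and 20.6% higher in blood. The SP genes, whose products bind the same GC boxes, had 3 of 9 tested. Sp1 (−0.71, adjusted p = 0.0278), Sp2 (−0.59, adjusted p = 0.0406) and Sp3 (−0.91, adjusted p = 0.00341) were all called lower in tumor than in blood, where 34.5% of all genes were. Plain read totals left 1 of them called.

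The genes of the inputs to the members were counted in the same way. Of the ERK5 and MEF2 genes ahead of Klf2, 2 of 5 were tested. Mapk7, which encodes ERK5, was lower in blood than in bone marrow (−1.92, limma adjusted p = 0.000237) and higher in tumor than in blood (1.24, adjusted p = 0.000972), whereas Klf2 passed in neither comparison. Against bone marrow Mapk7 was lower in the tumor (−0.69, adjusted p = 0.0197), or −0.24 and not called with plain read totals. Mef2d, the other gene tested, was higher in blood (0.81, adjusted p = 0.0279) and in the tumor (1.42, adjusted p = 0.00156) than in bone marrow, and tumor against blood did not pass (0.61, adjusted p = 0.0571) except with plain totals (1.06, adjusted p = 0.00602). Of 8 TGF-beta pathway genes 4 were tested, and 3 were called lower in tumor than in blood, where 34.5% of all genes were. These were the receptor gene Tgfbr2 (−1.22, adjusted p = 0.017), Smad2 (−0.72, adjusted p = 0.00443) and the ligase gene Itch (−0.52, adjusted p = 0.0435), none of them called with plain read totals. Of the genes not tested, Smad7 (1.94), Smad3 (0.69) and Tgfb1 (0.09) had higher means in tumor than in blood, and Smad4 had a lower mean (−0.58). In blood against bone marrow Tgfbr2 alone of the 4 was called higher (1.05, adjusted p = 0.0438), where 20.6% of all genes were. Plain read totals gave 3 called higher. None of the 4 genes for ubiquitin ligases that act on these factors passed the filter.

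Of 5 tested genes of the glucocorticoid response 4 were called higher in blood than in bone marrow and none lower, where 20.6% and 23.6% of all genes were. In tumor against blood 4 were lower and 1 higher, where 34.5% and 28.1% of all genes were, or 3 and 1 with plain read totals. Tsc22d3, the glucocorticoid-induced leucine zipper gene, had mean log2 FPKM of 4.09 (bone marrow), 6.14 (blood) and 3.06 (tumor), and fell by 3.07 from blood to tumor (limma adjusted p = 2.45e-06). Sgk1 (−1.88, adjusted p = 4.34e-05), the receptor gene Nr3c1 (−1.33, adjusted p = 0.000278) and Fkbp5 (−1.01, adjusted p = 0.0204) fell too, and Per1, named because it was the exception, rose by 0.42 (adjusted p = 0.0349). Klf9, the member of this response, had its highest mean in the tumor, where it overlapped with blood. It was outside the tested set. Against blood the limma fit with no filter did not call it (adjusted p = 0.089), and limma-voom called it higher (adjusted p = 0.0285).

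Known targets of Klf2, Klf4 and Klf6 were looked up as single genes. Cdkn1a, the p21 gene, which Klf4 and Klf6 are known to activate, rose from mean log2 FPKM of −0.81 in bone marrow and 0.50 in blood to 6.62 in the tumor and exceeded blood in the tumor by 6.12 (limma adjusted p = 4.64e-06). The integrin gene Itgb7, a target of Klf2 in T cells, was lower in the tumor than in blood (−1.93, adjusted p = 0.00815). S1pr1, another target of Klf2 in T cells, did not pass in this comparison (0.72, adjusted p = 0.0835) but did with plain read totals (1.17, adjusted p = 0.0167), and exceeded bone marrow in the tumor (1.21, adjusted p = 0.0139).

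Immediate early genes, which respond to stimulation and to tissue handling within the hour, were counted beside the members because Klf2, Klf4, Klf6 and Klf10 are known to respond in the same way. Of 21 such genes 20 were tested. In tumor against blood 17 were called higher and none lower, with a median difference of 2.92, where 28.1% and 34.5% of all genes were called. Tumor against bone marrow again gave 17 and none, with a median of 3.50, where 22.4% and 32.9% of all genes were called. Among the tested genes the largest differences from blood were those of Egr1 (7.94, limma adjusted p = 2.62e-06), Maff (5.55, adjusted p = 0.015), Hspa1b (5.44, adjusted p = 0.00166) and Egr2 (4.50, adjusted p = 0.00409). Maff and Hspa1b had mean log2 FPKM of −4.97 and −4.49 in blood and −7.07 and −5.42 in bone marrow. Such genes entered the tested set mainly through the tumor libraries, where they are high, so the counts that include them are a description. Most of the tested genes, Fos and Junb among them, had mean log2 FPKM over 0 in every compartment. Klf4 rose in the tumor together with the immediate early genes. Klf6 lay there between bone marrow and blood, and Klf2 and Klf10 did not differ from blood by the test. In blood against bone marrow, where Klf3, Klf6, Klf10 and Klf13 rose, 10 of the 20 were higher and 2 lower, beside 20.6% and 23.6% of all genes. Whether stimulation in the tumor or the digestion gave these values was not tested.

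For each tested member the non-member genes with the most similar profile over the 9 libraries were taken by Pearson's r of log2 FPKM. The 9 points share 3 compartments, so r mostly records the order of the compartments and is given as a description. Klf13 was most like Ptger2, Miip and Rassf5 (r = 0.996 each), and Ptger2, the gene of a prostaglandin E receptor, had means of 1.79 (bone marrow), 2.83 (blood) and 0.38 (tumor). Klf3 was most like Mir1964 (0.993), Gm2976 (0.992) and Txnip (0.99). Txnip had means of 7.63, 9.40 and 7.43 in bone marrow, blood and tumor. Mir1964 had a mean of −1.2 and Gm2976 of −3.83 in both bone marrow and tumor, against 2.48 and 0.21 in blood. These 2 genes passed the filter through the blood libraries, so their likeness to Klf3 rests on blood. Klf6 was most like Tlr6 (0.992), Cd300lf (0.991) and Gbp9 (0.989). These are a Toll-like receptor gene, an inhibitory receptor gene and a guanylate-binding protein gene, and each was highest in blood. By its mean Gbp9 was over 0 in blood alone (0.53, against −1.56 in bone marrow and −0.88 in tumor). Klf7 was most like Mxd1 (0.995), Arid1a and Zfp597 (0.984 each), and Klf10 like Arf2 (0.992), Dusp16 and Il1bos (0.98 each). Klf4 was most like Lama5 (0.988), Timp3 (0.983) and 2410002F23Rik (0.982). Lama5, a laminin gene of basement membranes, and Timp3, a matrix protease inhibitor gene, were at means of 0.74 and 0.17 in tumor. In both other compartments they were at −6.31 or lower. Like Klf4, they passed the filter through the tumor libraries, so their likeness to Klf4 rests on tumor. The third gene, 2410002F23Rik, was over 0 in all compartments, with means of 0.46 (bone marrow), 0.50 (blood) and 2.47 (tumor). The closest profiles to Klf2 reached less, at 0.931 for Fam168b, 0.905 for Hgsnat and 0.901 for Lrp10.

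The positions of the members in GRCm38, taken by gene identifier from GENCODE M21, put them on 8 chromosomes: Klf7 at chr1:64029447-64122282, Klf4 at chr4:55527143-55532466, Klf3 at chr5:64803388-64832901, Klf13 at chr7:63886351-63938915, Klf2 at chr8:72319033-72321656, Klf6 at chr13:5861482-5870394, Klf10 at chr15:38291463-38300706 and Klf9 at chr19:23141226-23168134. No member overlaps another. Klf13 overlaps Gm27252 on the opposite strand, which had 43 to 262 reads per library beside 1578 to 8883 for Klf13, and Klf7 overlaps Gm13748 on the opposite strand with 9 to 25 reads. Klf3 overlaps C230096K16Rik on its own strand with 6 to 51 reads beside 572 to 2453 for Klf3. The libraries were not made to keep the strand, so reads of overlapping genes cannot be told apart there.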

How the data were processed

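The authors aligned the paired reads to GRCm38/mm10 with STAR 2.5.2b, counted them per gene with featureCounts 1.5.0 on GENCODE M7, and deposited log2 FPKM values, made with edgeR 3.8.6 per the labels (tools and versions are from the submitters' processing notes and the paper's methods). How strand was set in counting is not given in the sources used here. From the steps between low values, whole reads were recovered for all 46517 genes (tolerance 0.001 reads), which gave library sizes and scaling factors. Deposited values were compared with limma 3.58.1 in R 4.3.3, with an intensity trend, 9 libraries and a coefficient per compartment. Genes with log2 FPKM over 0 in 3 or more libraries were tested (7794), and Benjamini-Hochberg adjusted p under 0.05 was called. The paper's methods name limma-voom, which was an alternative here on recovered reads. Other alternatives were no filter, a filter at log2 FPKM of 2, a pseudocount of 1 FPKM, plain read totals, quantile normalization, no trend, a replicate block, each pair of compartments alone, and each library left out. Levels per exon used GENCODE M21 exon unions. Named genes were all members, all other Krüppel-like factor genes, up to 4 called genes per list with the largest tumor to blood difference, the co-regulators that bind members, and the 3 genes most like each tested member. Members and lists were chosen with earlier results of these data known. Protein sequences were not analysed here, and 1 gene of the target list is not reported here. The fit was tested on simulated data.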

Additional observations from a re-analysis of the deposited data

How the results depend on the processing

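Of the members' 24 differences, those of Klf3, Klf4, Klf6, Klf10 and Klf13 that were called kept their direction under all alternatives run, and calls were lost only where named here. Klf4 and Klf7 have no value under the filter at log2 FPKM of 2, which left 0 members higher in tumor than in blood against 1, and 3 lower against 4, and with plain read totals, quantile normalization or limma-voom there were 2 higher (Klf10 added in the first and second, Klf9 in the third). Members lower in tumor than in blood went from 4 to 2, without Klf6 and Klf7, with plain totals or an absolute log2 difference of at least 1, and members lower in tumor than in bone marrow from 1 to 2 without the trend, where Klf7 was called (adjusted p = 0.0487). Direction turned with plain totals in tumor against bone marrow for Klf2 (0.127), Klf3 (0.281) and Klf7 (0.131), and with quantile normalization in blood against bone marrow for Klf4 (0.099), none of them called. Leaving out single libraries moved Klf2 between −1.05 and −0.182 in tumor against blood (−0.202 with plain totals), between −0.682 and 0.046 in tumor against bone marrow, and between −0.142 and 0.726 in blood against bone marrow. A pseudocount of 1 FPKM took Klf4 to 1.51 and 1.409 in the tumor comparisons, both called. The fold limit also dropped Klf6 in tumor against bone marrow and Klf13 in blood against bone marrow, since it asks for larger differences. Over all genes, 2194 were higher and 2686 lower in tumor than in blood. These became 5534 higher with no filter, 918 and 1644 with the strict filter (fewer genes tested), 5871 higher with limma-voom, and 2923 and 1898 with plain totals. Against bone marrow 1745 and 2566 became 4284 higher with no filter, 849 and 1529 with the strict filter, 5192 higher with limma-voom, and 2601 and 1634 with plain totals. In blood against bone marrow 1605 and 1841 became 1036 and 888 with the strict filter, 2449 and 2912 with limma-voom, and 968 and 1208 with the fold limit. Apart from the number of genes tested, the cause was not tested. The paper speaks of tumor, blood and bone marrow neutrophils of the same mouse, and the labels do not say which libraries share animals. The deviations of libraries with the same number correlated at −0.071 to 0.108, and those of other pairs at −0.098 to 0.106. With 3 libraries per compartment these values cannot show whether libraries were paired. With the replicate block, 2167 genes were higher and 2684 lower in tumor than in blood, and no member's call changed. Klf4 and Klf9 rest on few reads, which limits what could be detected in bone marrow and blood.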
